A study of Drosophila melanogaster with 4 samples.

Results

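The Bomanins are a family of secreted immune peptides of Drosophila melanogaster, and their transcripts were followed here in whole larvae labelled wildtype and kr-h1 mutant. The 7 members described (BomS1, BomS2, BomS3, BomS5, BomBc1, BomBc2 and BomBc3) were found by matching the transcript accessions of the deposited gene table to NCBI symbols. Each had 1 row among the 16198 rows of the table. The other 5 Bomanin genes of the annotation (BomS4, BomS6, BomT1, BomT2 and BomT3) had 1 row each as well and are given beside the members, which makes 12 rows for the family.

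RNA was taken from whole 3rd instar larvae at 100 h after egg laying, with 2 libraries of the group labelled wildtype and 2 of larvae homozygous for the allele kr-h1[7], labelled kr-h1 mutant. Flies of both groups were kept at 25°C, and adults were reared on an agar diet with 10% sugar, 2.5% yeast and 0.8% cornmeal. Polyadenylated RNA was isolated, the cDNA was sheared to a 320 bp insert, and the libraries were sequenced from both ends on a MiSeq instrument, per the labels' protocols. The authors combined the libraries of each group into 1 FPKM value per gene (fragments scaled to transcript length and to sequencing depth). The values below therefore carry no replicate error, and the depth of the libraries is unknown. The sources used here give neither the strain of the wildtype group, nor the number or sex of the larvae, nor whether replicate libraries stem from separate collections.

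Bomanins are made mainly in the fat body, the fly's counterpart of liver and adipose tissue, and are released into the haemolymph. In adult flies they are strongly induced by the Toll pathway, in which the cleaved ligand Spätzle activates the receptor Toll and the NF-kappaB factors Dif and Dorsal enter the nucleus. Adult flies without the main Bomanin gene cluster are sensitive to fungi and to Gram-positive bacteria. Short-form peptides (BomS) consist of little more than the conserved Bomanin motif, tailed forms (BomT) carry a further stretch at the C-terminus, and bicipital forms (BomBc) carry a pair of motifs joined by a linker. Kr-h1, Krüppel homolog 1, is a transcription factor with zinc fingers that responds to juvenile hormone.

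Kr-h1 itself had 2.98 FPKM in larvae labelled wildtype (wt) and 9.79 FPKM in those labelled mutant (kr), and it was called higher (Cuffdiff q-value 0.000889 in the authors' deposited table). A row is called where the authors tested it and its q-value, a p-value adjusted over all tested rows, was at most 0.05. Its level was thus not lower under the mutant label. Every direction given here rests on the labels, so the groups are named after them, as wt-labelled and kr-labelled.

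Bomanin transcripts were listed at or near 0 in wt-labelled larvae, and BomS3 was the member that differed past the threshold, with a listed 0 and 45.2 FPKM in kr-labelled larvae. In wt-labelled larvae 6 of the 7 members were listed at 0, and in kr-labelled larvae 3 were. Summed over the 7 members, the level was 0.945 FPKM in wt-labelled and 56.0 FPKM in kr-labelled larvae. None of the 7 members had a lower value in kr-labelled larvae, 4 had a higher one and 3 were listed at 0 in both groups. Only BomBc2 could have a lower value, because the other 6 members were listed at 0 in wt-labelled larvae. Across all 16198 rows, 5983 had a higher and 5856 a lower value in kr-labelled larvae. Of these rows 5442 were listed at 0 in wt-labelled larvae, 4920 in kr-labelled larvae and 4359 in both.

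**Figure D1:**
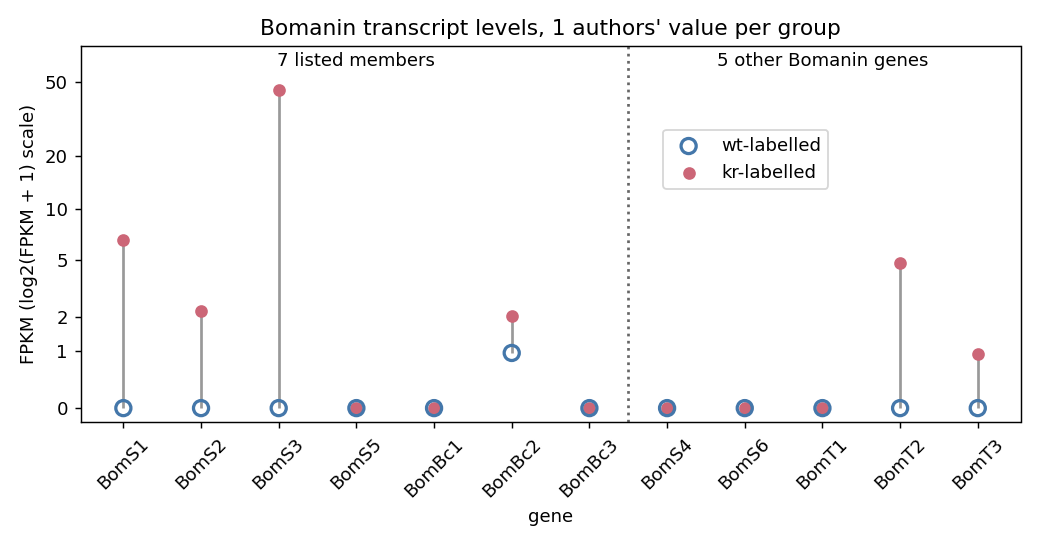
FPKM of the 12 Bomanin rows, on a log2(FPKM + 1) scale, with 1 authors' value for wt-labelled (open blue) and 1 for kr-labelled larvae (filled red) and no error. BomS3 stands highest at 45.2 FPKM in kr-labelled larvae, and BomBc2 is the row with a value above 0 in wt-labelled larvae.

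Among the short-form genes, BomS3 (older name IM3, immune-induced molecule) was listed at 0 in wt-labelled and at 45.2 FPKM in kr-labelled larvae. The authors' deposited Cuffdiff table listed for it a p-value of 5e-05, the smallest in the table, which 397 tested rows share, and a q-value of 0.000889. On the log2 scale with a pseudocount of 1 the ratio was 5.53, a size set by that pseudocount because 1 value is 0. BomS3 alone held 80.6% of the members' summed FPKM in kr-labelled larvae. Its level there was above that of 92.5% of all rows. The annotation gives BomS3 transcripts of 301 and 769 nucleotides, and the accession in its row of the table covers the full span of the longer one, positions 18387895 to 18388734 of chromosome arm 2R.

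BomS1 (older name IM1) was listed at 0 in wt-labelled and at 6.60 FPKM in kr-labelled larvae. It was tested by the authors and was not called (Cuffdiff p-value 0.126, q-value 0.333 in the authors' deposited table). Its log2 ratio with a pseudocount of 1 was 2.93. BomS1 is not the gene Dim1, a splicing factor gene whose symbol resembles an older name of BomS1 and which was called in a row of its own.

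BomS2 (older name IM2) was listed at 0 and 2.21 FPKM and was not tested by the authors. The pseudocount sets its log2 ratio of 1.68 as well. BomS5 was listed at 0 in both groups. The order of the short-form members in kr-labelled larvae was thus BomS3, BomS1, BomS2 and BomS5 on the FPKM scale. With 1 value per group it cannot be said which neighbours in this order differ beyond the spread of libraries. Short-form Bomanins are related genes, and whether fragments were divided among them was not tested.

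Among the bicipital genes, BomBc2 was the member with values above 0 in both groups. It had 0.945 FPKM in wt-labelled and 2.02 FPKM in kr-labelled larvae, a ratio of 2.14, and was not tested by the authors. BomBc1 (older name IM23) and BomBc3 were listed at 0 in both groups. BomBc2 lies on the minus strand and overlaps BomS4 on the plus strand over 88 bp, at 18384824 to 18384911 of arm 2R, and the table gives both the same locus. Whether counting used strand is not given in the sources used here, so it is not known how fragments from this overlap were assigned to the genes. BomS4 itself was listed at 0 in both groups.

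The members' counts have to be read against the whole table. Of the 7 members 2 were tested, and 1 of these was called higher, 0 were called lower and 1 was not called. Of all 7058 tested rows 13.0% were called, 4.32% as higher and 8.73% as lower. Among the 74 tested rows that were listed at 0 in wt-labelled larvae and above 0 in kr-labelled larvae, as both tested members were, 25 were called (33.8%). At a q-value of at most 0.01, 8.08% of tested rows passed (2.41% higher, 5.67% lower), and at an unadjusted p of at most 0.05, 25.8% did (9.93% higher, 15.9% lower). BomS3 passed both and BomS1 passed neither. A pair of tested rows is too few to set a share against these. The median log2 ratio of the 7 members was 0.64, beside 0 over all rows and -0.03 over tested rows, and it is the value of BomBc2.

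**Figure D2:**
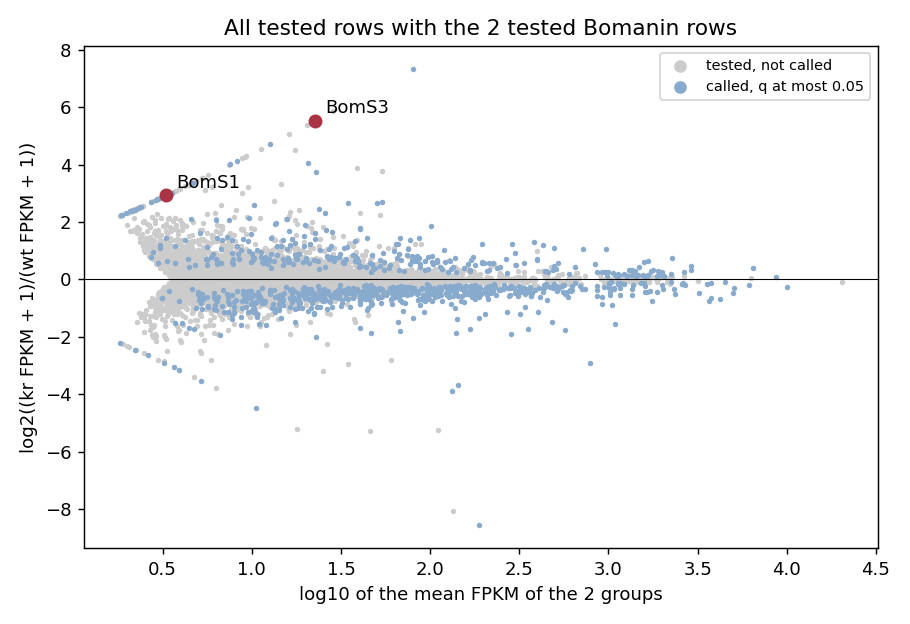
The log2 ratio of kr-labelled to wt-labelled FPKM, with a pseudocount of 1, against log10 of the mean FPKM, for the 7058 tested rows. The red points are BomS3, at 5.53 and called, and BomS1, at 2.93 and not called. Both lie on the upper edge formed by rows listed at 0 in wt-labelled larvae.

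A listed 0 in 1 group was common in the table, and more so for wt-labelled larvae. There were 1083 rows listed at 0 in wt-labelled larvae only and 561 listed at 0 in kr-labelled larvae only. The level of BomS3 was rare among them. Only 3 rows, BomS3 included, were listed at 0 in wt-labelled larvae with at least 45.2 FPKM in kr-labelled larvae, and 2 of them were called. In the opposite direction 2 rows reached that level and 1 was called.

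The level of BomS1 was less rare, with 43 rows listed at 0 in wt-labelled larvae and at 6.60 FPKM or more in kr-labelled larvae. Of these 37 were tested and 8 were called. In the opposite direction 10 rows reached the level of BomS1, and 5 of the 10 were called. For BomS2, 208 rows reached its level in this direction and 90 in the other. Genes of general cell functions were also listed at 0 in wt-labelled larvae, among them Dim1 (16.5 FPKM in kr-labelled larvae), the autophagy gene Atg12 (9.42 FPKM) and Mzt1 (7.11 FPKM), which were named after their values were seen. Dim1 was called, and Atg12 and Mzt1 were not. Atg12 and Mzt1 share their loci with other rows, whereas Dim1, BomS1 and BomS3 do not. A listed 0 is therefore given only as listed. No ratio of the FPKM values themselves is given against it, and a log2 ratio with a pseudocount is no measure of the size of such a difference.

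Most Bomanin transcripts are short, and the share of rows listed at 0 in both groups differed with transcript length across the table. In the annotation the longest transcripts of BomS5, BomS6 and BomS4 have 218, 198 and 281 nucleotides, below the 320 bp insert of the libraries. All 3 genes were listed at 0 in both groups. Those of BomS1 and BomS2 have 361 and 367 nucleotides, that of BomBc1 468, that of BomBc2 711 and that of BomBc3 1193. Among all 688 rows with 1 gene and a longest transcript under 300 nucleotides, 95.6% were listed at 0 in both groups and 3.05% were tested. This class takes in non-coding RNA genes such as snRNA:U1:82Eb, and protein-coding genes were not counted apart. It also holds CG42832, with 252 nucleotides, which was listed at 0 and 25.5 FPKM and was called. Among the 442 rows from 300 to under 400 nucleotides, 74.9% were listed at 0 in both groups, 7.24% at 0 in wt-labelled larvae only and 2.94% at 0 in kr-labelled larvae only. The 500 to under 1000 nucleotide class, which holds BomS3, had 10.0% of its 3506 rows at 0 in wt-labelled larvae only, the highest share of the 5 classes, 4.93% at 0 in kr-labelled larvae only and 33.1% tested. From 1000 nucleotides upward, 12.1% were listed at 0 in both groups and 51.8% were tested.

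**Figure D3:**
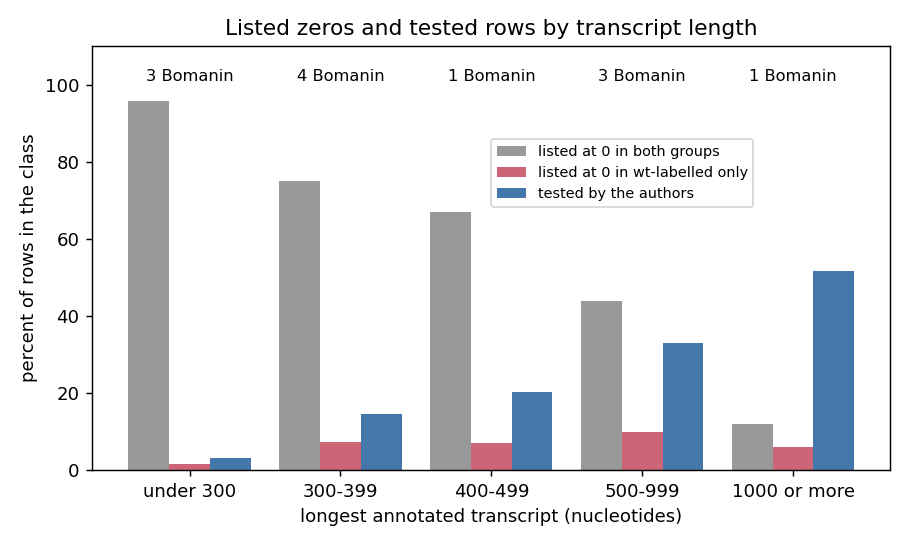
Percent of rows with 1 gene symbol, by length of the longest annotated transcript in nucleotides, that were listed at 0 in both groups (grey), listed at 0 in wt-labelled larvae only (red) or tested by the authors (blue), with the number of Bomanin rows in each class above. The grey bars fall from 95.6% under 300 nucleotides to 12.1% at 1000 or more.

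BomBc3, with the longest transcript of the family, was likewise listed at 0 in both groups. The part of transcript length in the difference of BomS3 was not tested.

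By position, 10 of the 12 Bomanin genes form 1 cluster of 9237 bp on arm 2R, from 18381393 to 18390629, which holds 6 of the 7 members. The remaining member BomBc3 lies on arm 3R at 22087075 to 22088501, next to BomT3. In kr-labelled larvae the values above 0 lay within the cluster at BomS1 (6.60 FPKM), BomBc2 (2.02 FPKM), BomS2 (2.21 FPKM), BomS3 (45.2 FPKM) and BomT2 (4.77 FPKM). BomT2, a tailed Bomanin, starts just downstream of BomS3 on the same strand. It was listed at 0 in wt-labelled larvae and was not tested by the authors. The outer genes BomT1, BomBc1, BomS5 and BomS6 were listed at 0 in both groups. On arm 3R, BomT3 was listed at 0 and 0.929 FPKM, also not tested.

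**Figure D4:**
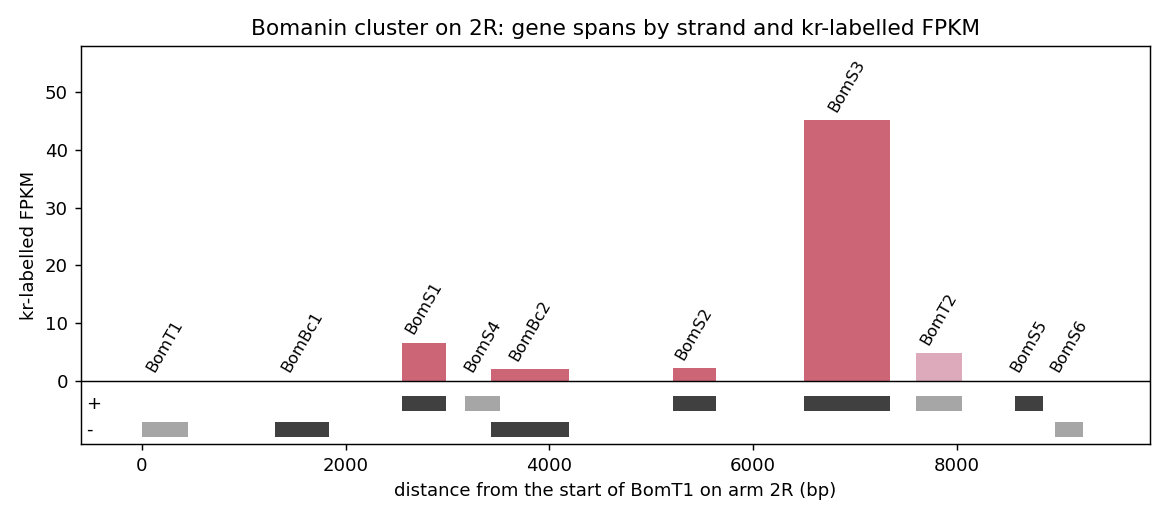
The 10 Bomanin genes of arm 2R by distance from the start of BomT1 in bp, with gene spans on the plus and minus strand below the axis and the FPKM in kr-labelled larvae as bars that span each gene. Members are dark and other Bomanin genes light. BomS3 reaches 45.2 FPKM, and the outer genes have no bar.

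Rows other than Bomanins near the members were not called in either direction. Within 10 kb of the 2R members these were Idgf5, an imaginal disc growth factor gene (23.1 and 17.9 FPKM), and the glutathione S-transferase genes GstE1 (19.95 and 25.4 FPKM), GstE10 (16.3 and 11.5 FPKM) and GstE2 (a listed 0 and 0.864 FPKM, not tested). Their Cuffdiff q-values in the authors' deposited table were 0.331 for Idgf5, 0.561 for GstE1 and 0.524 for GstE10. The rows of lncRNA:CR42736, on the same side as BomT1, and of CG13408, near BomBc3 on arm 3R, were listed at 0 in both groups. GstE1 and GstE10 share their locus.

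The Toll pathway genes that act before the receptor held 1 called gene among 13 tested, in the lower direction, beside 8.73% called lower among all tested rows. The serine protease gene grass, which acts in the cascade that cleaves Spätzle, had 24.3 FPKM in wt-labelled and 13.3 FPKM in kr-labelled larvae (Cuffdiff q-value 0.00895 in the authors' deposited table). PGRP-SA, a receptor for Gram-positive peptidoglycan, had 19.5 and 27.6 FPKM, and spz, the gene of the ligand, had 7.88 and 8.49 FPKM. Neither was called. PGRP-SD, also of peptidoglycan recognition, stood at 1.18 and 12.3 FPKM and was not called (Cuffdiff q-value 0.153 in the authors' deposited table). Its locus is that of another row too, and it was named after its values were seen, for the largest ratio of the list. The median log2 ratio over the 13 tested rows was -0.13, beside -0.03 over all tested rows.

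Of 12 tested genes of the Toll receptor and its intracellular signalling, Cuffdiff called 0, with 1 at an unadjusted p of at most 0.05. Among all tested rows 13.0% were called and 25.8% had such a p. The gene of the inhibitor Cactus, cact, had 26.1 FPKM in wt-labelled and 22.0 FPKM in kr-labelled larvae. The adaptor genes tub (9.97 and 9.28 FPKM) and Myd88 (7.46 and 9.51 FPKM) were not called either. The NF-kappaB gene dl had 9.20 and 5.77 FPKM, for which the authors' deposited table has a Cuffdiff q-value of 0.0796, and Dif had 6.63 and 4.76 FPKM. Of the 12 genes 3 had a positive and 9 a negative log2 ratio, with a median of -0.24. Over all tested rows 3282 were positive and 3776 negative, with a median of -0.03.

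The Imd pathway, which responds mainly to Gram-negative bacteria, held 1 called gene among 16 tested, in the higher direction, beside 4.32% called higher among all tested rows. It was casp, the gene of the Imd inhibitor Caspar, with 9.42 FPKM in wt-labelled and 14.5 FPKM in kr-labelled larvae (Cuffdiff q-value 0.0454 in the authors' deposited table), and at a q-value of at most 0.01 no gene of the list passed. Rel, the NF-kappaB gene of this pathway, had 15.99 and 17.1 FPKM. The adaptor gene Fadd, named after its values were seen, was listed at 0 and 6.08 FPKM and was not called (Cuffdiff q-value 0.258). The locus of Fadd is that of another row too. The median log2 ratio over the 16 tested rows was 0.13.

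The list of other Toll-responsive secreted peptides did not hold a called row. Of 17 rows for these peptides and the Bomanin partner gene Bbd (BaraA2 has 2 of the rows) 4 were tested, and Cuffdiff called 0, with 0 at an unadjusted p of at most 0.05. Among all tested rows these shares were 13.0% and 25.8%, and 4 tested rows are too few to set against them. Bbd (bombardier), whose product short-form Bomanins need in adult flies, had 11.1 FPKM in wt-labelled and 10.2 FPKM in kr-labelled larvae. IM33, another immune-induced molecule, was far above any Bomanin on the FPKM scale, with 1728 and 1631 FPKM. Drs, the gene of the antifungal peptide Drosomycin, had 9.23 and 14.2 FPKM (Cuffdiff q-value 0.671 in the authors' deposited table). Dso1 (Daisho 1), named after its values were seen, was listed at 0 and 18.3 FPKM and was not called (Cuffdiff q-value 0.247), although its value in kr-labelled larvae was the next highest in the list after IM33. In this list 12 rows were at 0 in both groups.

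Among 14 classical antimicrobial peptide genes, Drs was the 1 tested row and it was not called. Mtk, the gene of Metchnikowin, was listed at 0 and 7.04 FPKM and was not tested by the authors, in a row that shares its locus. Summed over the 14 genes the level was 20.5 FPKM in wt-labelled and 29.8 FPKM in kr-labelled larvae. Of these genes 6 had a higher value in kr-labelled larvae, 3 a lower one and 5 were listed at 0 in both groups.

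**Figure D5:**
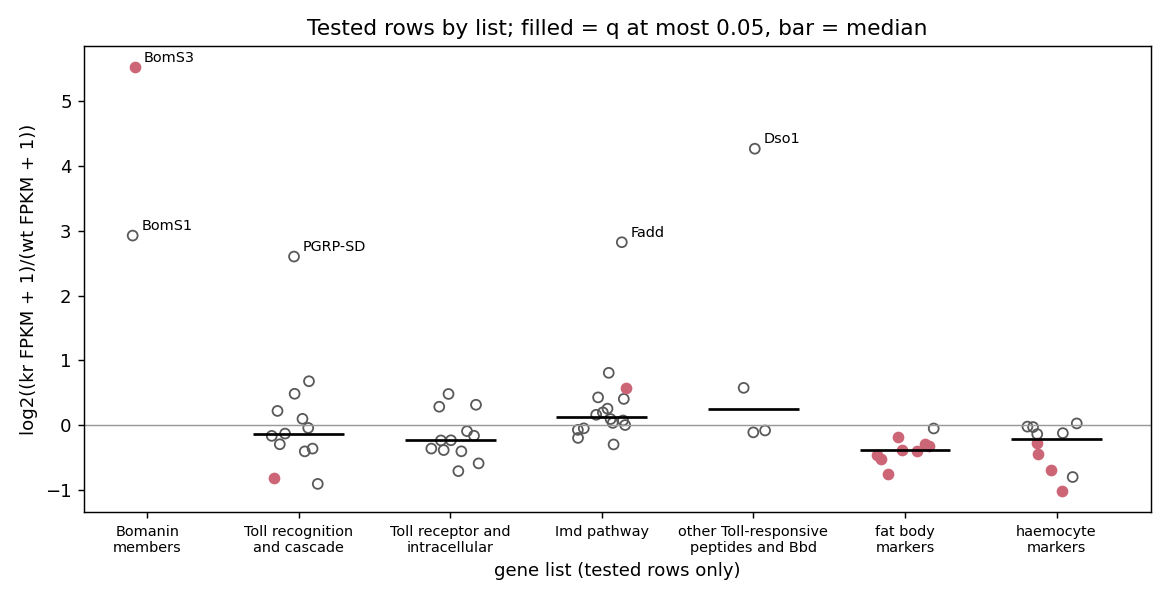
The log2 ratio of kr-labelled to wt-labelled FPKM, with a pseudocount of 1, for tested rows of the Bomanin members, 4 immune lists and 2 marker lists. Filled points were called at a q-value of at most 0.05 and bars are medians of lists with over 2 tested rows. BomS3 is the filled point at 5.53, and the fat body markers lie below 0.

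Markers of the tissues in a whole larva moved between the groups too. Among all tested rows 8.73% were called lower and 4.32% higher, the shares for each list below. Fat body markers, from the tissue that makes Bomanins, were called lower in 8 of 9 tested genes and higher in 0, and their summed level went from 23825 FPKM to 18466 FPKM with none at 0. Lsp2, a larval serum storage protein gene (3733 to 2706 FPKM), and Fbp1, the gene of a receptor that takes up such proteins (201 to 139 FPKM), were among those that fell. Haemocyte markers were called lower in 4 of 10 tested genes and higher in 0, beside 8.73% called lower among all tested rows. Among the 4 were the scavenger receptor genes crq (26.2 to 15.8 FPKM) and Sr-CI (8.57 to 3.72 FPKM), whose Cuffdiff q-values in the authors' deposited table were 0.0181 and 0.027. At a q-value of at most 0.01, 1 haemocyte marker passed and neither of these did. The summed level of the haemocyte markers was 469 and 412 FPKM, and He was listed at 0 in both groups. Muscle markers were called lower in 8 of 9 genes, epidermis and cuticle markers in 2 of 5 and midgut markers in 2 of 7, with 1 midgut marker higher. The calls took in small shifts. Log2 ratios of the called muscle markers ran from -0.62 for Mhc to -0.14 for Mlc2 (2715 to 2462 FPKM). Median log2 ratios over tested rows were -0.38 for fat body, -0.21 for haemocyte, -0.28 for muscle and -0.15 for cuticle markers. Over all tested rows the median was -0.03. The midgut list was mixed, with 4 positive and 3 negative log2 ratios and a median of 0.30. Lists of 5 and 7 tested genes are small for a share. In bulk samples, fewer cells of a type, less RNA per cell and a lower level of the marker genes alone cannot be told apart. The part of these shifts in the Bomanin values was not tested.

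The rows whose pattern lay nearest to the summed members were chosen among 3771 tested rows with a mean of at least 10 FPKM, by the distance in log2 ratio from the 4.87 of the summed members. With 2 group values this likeness is a single ratio, and the pseudocount sets its size where a value is 0. For rows listed at 0 in wt-labelled larvae the distance thus depends only on their FPKM in kr-labelled larvae. They were CG42832 (a listed 0 and 25.5 FPKM, distance 0.15), lncRNA:CR43264 (0 and 32.2 FPKM, 0.18), asRNA:CR43908 (0 and 22.4 FPKM, 0.32), CG33267 (0.557 and 34.6 FPKM, 0.36) and snRNA:U1:82Eb (0 and 40.7 FPKM, 0.51). Of these 5 rows CG42832 was called (Cuffdiff q-value 0.00163 in the authors' deposited table), and the other 4 were not. The rows of lncRNA:CR43264 and asRNA:CR43908 share their loci with other rows.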

How the data were processed

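The data were the authors' deposited table of gene-level comparisons with 16198 rows. TopHat2, Cufflinks and Cuffdiff are named in the submitters' processing notes. The build, annotation, tool versions and settings are not given in the sources used here. Deposited FPKM values were made by the authors, 1 per group. The deposited log2 fold change matched the log2 of the deposited values above 0, within 0.001. The deposited test statistic, a score, was not used. Cuffdiff gave the deposited p-value and q-value. A Benjamini-Hochberg adjustment of the p-values matched the q-value over the 7058 tested rows within 1e-05. A further 9135 rows were not tested by the authors and 5 were set aside by them. A row is called where it was tested and its q-value is at most 0.05.

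No test of differences was run anew, because the table holds no value per library. Those p-values measure at most the spread between the libraries, which may be technical. Ratios use a pseudocount of 1. Accessions were matched to NCBI Release 6 symbols (30273 of 30529 matched), and transcript lengths were taken from Ensembl release 115. Coordinates are those of the table with a 1-based start.

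The members and the 11 other gene lists were chosen with earlier results of these data known. Genes are named as follows: all Bomanins, rows within 10 kb of the members, up to 6 called genes per list or, with none called, the 3 most abundant, and the 5 rows nearest in ratio. Pathway genes of known role were named in addition, after their values were seen. The adjustment was checked on simulated p-values. Tables were computed in Python 3.11.15 with pandas 2.3.3, scipy 1.17.1 and numpy 2.4.6, and plots in matplotlib 3.10.9.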

Additional observations from a re-analysis of the deposited data

How the results depend on the processing

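BomS3 was the 1 member called under every setting tried: a q-value of at most 0.01, an unadjusted p of at most 0.05, rows with a mean of at least 1 FPKM, and rows with 1 symbol and an unshared locus. These settings could hardly drop BomS3, which has the smallest p-value listed by Cuffdiff, 1 symbol and an unshared locus. The direction of BomS3 and BomS1 is fixed by their listed 0, so the pseudocount sets only the size of their ratios. With a pseudocount of 0.1 the log2 ratio was 8.82 for BomS3 and 6.07 for BomS1. With a pseudocount of 5 it was 3.33 for BomS3 and 1.21 for BomS1. The log2 ratio of BomS2 was 4.53 with a pseudocount of 0.1, 0.53 with 5, 1.72 when centred on the median of tested rows and 1.71 with equal upper quartiles. For BomBc2 these were 1.02, 0.24, 0.67 and 0.66. The members' median was 1.02 with 0.1 and 0.24 with 5. The log2 ratio of the summed members, 4.87, became 4.93 as a share of each group's total, 4.70 without BomS1, 4.82 without BomS2, 2.61 without BomS3 and 5.78 without BomBc2. With all 12 Bomanin genes, an alternative chosen after seeing the data, it was 5.01. With an unadjusted p of at most 0.05, 2 higher and 2 lower genes of Toll recognition passed, 1 lower gene of Toll signalling, 2 higher genes of the Imd pathway, 2 higher midgut markers and 4 lower cuticle markers. Of all tested rows 9.93% passed this as higher and 15.9% as lower. At a q-value of at most 0.01 the Imd pathway had 0 and haemocyte markers 1. No paired analysis was possible because the table holds no value per library, and leaving out a library was not run for that reason. Depth is unknown, so a listed 0 sets no upper limit on a level.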
